A study of Mus musculus with 6 samples.

Results

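The HOX, T-box and SOX developmental factors are transcription factors chosen here by gene symbol. They comprise the protein coding *Hox* genes of the A, B, C and D clusters, the *Tbx* genes with *T* (brachyury) and *Eomes*, the *Sox* genes, and the homeobox genes *Cdx1*, *Cdx2*, *Cdx4*, *Msx1* and *Msx2*. This rule found 78 members among 21469 protein coding genes and 35683 genes in all, namely 39 *Hox* genes, 15 T-box genes, 19 *Sox* genes, 3 *Cdx* genes and 2 *Msx* genes. Their mRNA was measured in 6 liver tumors excised from 2 CMRtdT mice, with 3 tumors from each mouse. In CMRtdT mice, which carry a floxed exon 3 in 1 allele of *Ctnnb1*, the *MUP-uPA* transgene and a *R26* tdTomato reporter, Cre removes that exon and so makes a stabilized β-catenin, while the urokinase made from *MUP-uPA* injures hepatocytes. Both mice were fed a high-fat diet (HFD) from 6 weeks of age, received AAV8-TBG-Cre, whose TBG promoter limits Cre to hepatocytes, at 8 weeks, and had their tumors excised 6.5 months later. The tumors are called M1T1, M1T2 and M1T3 for numbers 1, 2 and 3 of mouse 1, and M2T1, M2T2 and M2T3 for those of mouse 2, and 3 values given for a mouse follow this order. All 6 tumors belong to 1 condition, every tumor carries the same alleles and agents, and the 3 tumors of a mouse share an animal. Non-tumor liver was not analysed here, so levels between tumors and between the 2 mice are given, and no change against normal tissue.

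HOX proteins bind DNA through a homeodomain and give cells their position along the body axis and the limbs. Their genes lie in clusters, and the order of the genes in a cluster follows the place and time at which they are used in the embryo. T-box proteins bind DNA through the T domain, and *T* itself marks the primitive streak, the tailbud and the notochord, where it is a direct target of Wnt and β-catenin signaling. SOX proteins share the HMG box, and several of them mark liver cells, with *Sox9* in bile duct cells and injured hepatocytes and *Sox18*, *Sox17* and *Sox7* in endothelium. *Tbx3* is known both as a factor of the early liver bud and as a target of β-catenin in liver tumors.

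Depth ran from 19130532 to 27681766 estimated counts per tumor, and mitochondrial genes held 6.85% to 18.4% of them. M1T1 stood apart from the other 5 tumors. The median chi-square per gene between 2 tumors lies below 1 when they differ by sampling alone. It was 216 to 251 for the pairs with M1T1 and 7.16 to 32.1 for the other pairs across the mice or within mouse 2. M1T2 and M1T3 were the closest pair, with a median of 1.46 and a mean of 8.65, more than sampling alone gives, and were kept as 2 tumors. A list of 9 hepatocyte markers summed to 31056 to 57275 TPM (transcript abundance scaled for length and depth) in the other 5 tumors and to 1694 TPM in M1T1, where *Alb*, which encodes albumin, was at 702 TPM. Each result below is given by tumor for this reason. In bulk tumors, a lower share of a cell type and less RNA per cell cannot be told apart.

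Most members were silent or nearly so in these tumors, and those that were expressed were mainly found in M1T1. At 1 TPM or more were 27 members (34.6%) in that tumor, against 15 (19.2%) and 16 (20.5%) in M1T2 and M1T3 and 7 (8.97%), 7 (8.97%) and 5 (6.41%) in M2T1, M2T2 and M2T3. Among all protein coding genes the share at that level was 58.3% in M1T1 and 47.1% to 53.2% in the other 5 tumors. The members therefore stood below the genome's share in each tumor. 29 members reached 1 TPM in at least 1 tumor, 31 stayed between 0 and 1 TPM in every tumor, and 18 had no count in any tumor. Together the 78 members summed to 1379 TPM in M1T1, to 93.4 and 85.9 TPM in M1T2 and M1T3, and to 32.4, 36.3 and 20.6 TPM in M2T1, M2T2 and M2T3. Their mean was 275 ± 542 TPM (SD, n = 6) with M1T1 and 53.7 ± 33.4 TPM (SD, n = 5) without M1T1. T-box genes held 64.4% of the members' summed TPM in that tumor, *Hox* genes 21.2%, *Sox* genes 7.49% and *Msx* genes 6.86%.

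**Figure D1:**
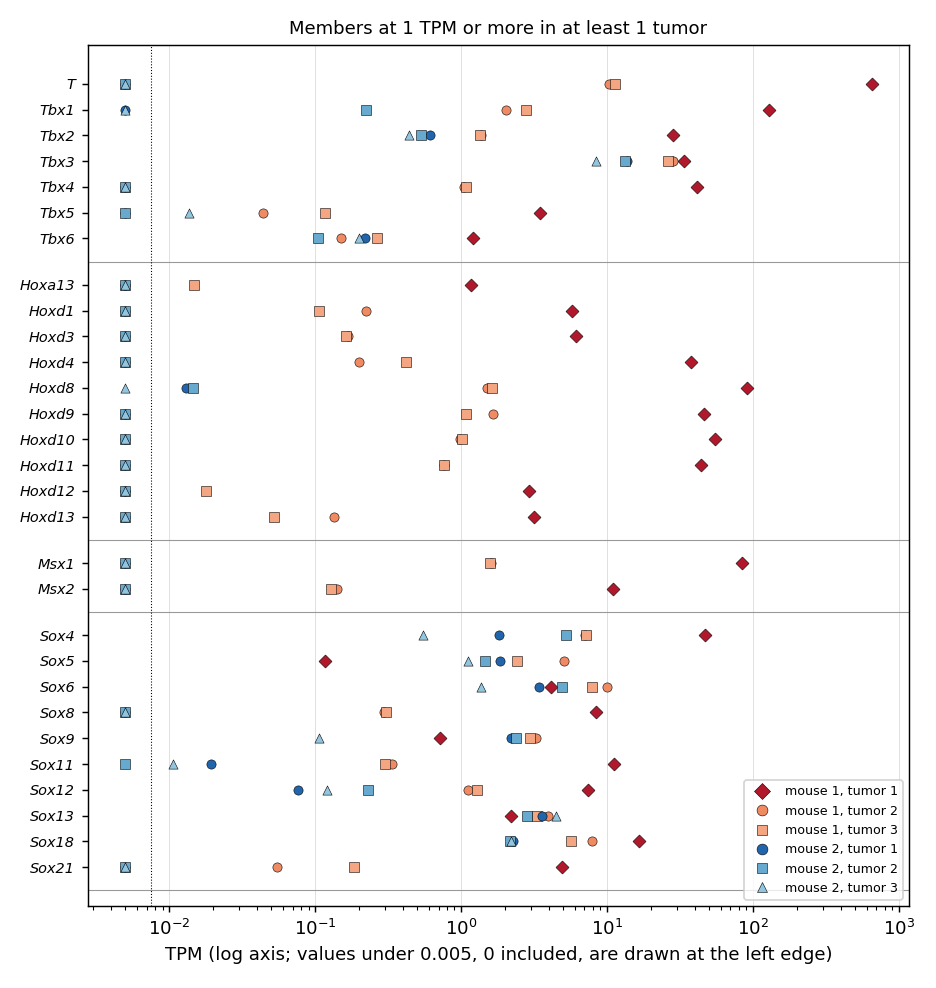
TPM of the 29 members that reached 1 TPM in at least 1 tumor, on a log axis, with 1 point per tumor and values under 0.005, 0 included, drawn at the left edge. M1T1 lies far to the right for *T* (651 TPM), *Tbx1* (128 TPM), the *Hoxd* genes and *Msx1*, M1T2 and M1T3 lie next to each other, and *Tbx3* is above 8 TPM in all 6.

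Of these 29 members, 23 (79.3%) were at least 4-fold higher in M1T1 than in each other tumor, where 22.8% of the 13600 protein coding genes that reached 1 TPM in a tumor met the same condition. The 6 members that did not were *Tbx3*, *Sox5*, *Sox6*, *Sox9*, *Sox13* and *Sox18*. In the opposite direction, *Sox5* alone (3.45% of the 29) was at least 4-fold lower there than in each other tumor, against 9.53% of all such genes. Of the 29 members, 13 were counted only through their level in M1T1, and a high level in that tumor is also what the condition asks for. Of the 16 members at 1 TPM or more in one of the other 5 tumors, 10 (62.5%) met it, against 13.7% of 11914 protein coding genes at that level there. Of these 10, *Sox4* alone reached 1 TPM in mouse 2, and the others were counted through M1T2 or M1T3. Several of them stood there at a low share of their level in M1T1, as given below, so this count is not free of M1T1 either. This tumor was set apart after its values were seen and is 1 sample, so these shares describe it and were not tested.

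Since β-catenin acts on DNA through TCF and LEF factors, the 250 bases before the transcription start were searched for their core words CTTTGAT and CTTTGAA on both strands. RefSeq promoters (GRCm38.p6) were matched for 50 of the 78 members, which have 60 start sites. The words occurred before 7 of these 60 starts (11.7%) and before 2457 of 32851 starts of all genes (7.48%). For members at 1 TPM or more in M1T1 the count was 6 of 30 starts from *T*, *Hoxd8*, *Hoxd12* and *Sox6*. The promoters of *T* and of *Hoxd8*, the member and the *Hox* gene with the highest level in M1T1, are printed with the words in capitals. On the plus strand, the *T* window is chr17:8434173-8434422 and the *Hoxd8* window is chr2:74704365-74704614.
T: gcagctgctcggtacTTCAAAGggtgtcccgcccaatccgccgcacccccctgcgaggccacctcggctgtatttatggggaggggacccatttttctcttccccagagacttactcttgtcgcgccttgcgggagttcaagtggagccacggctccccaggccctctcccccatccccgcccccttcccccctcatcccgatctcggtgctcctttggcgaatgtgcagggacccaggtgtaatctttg
Hoxd8: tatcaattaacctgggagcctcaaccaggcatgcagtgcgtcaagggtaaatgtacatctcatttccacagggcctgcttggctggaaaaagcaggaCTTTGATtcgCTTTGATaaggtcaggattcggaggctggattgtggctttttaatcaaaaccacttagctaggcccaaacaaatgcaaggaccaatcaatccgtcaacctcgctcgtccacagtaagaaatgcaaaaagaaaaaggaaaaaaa
In *T* the word appears on the opposite strand as TTCAAAG, beginning 235 bases before the start. *Hoxd8* holds CTTTGAT in 2 places, beginning 153 and 143 bases before its start. A word is a match of letters and not evidence of binding, and no binding was measured in these tumors.

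*T* was the most abundant member in M1T1, and in each of the other 5 tumors *Tbx3* was. It encodes brachyury, the T-box factor of the primitive streak and notochord, and lies on chromosome 17 from 8434423 to 8442496 (GRCm38). Its level was 651 TPM (14994 estimated counts) in M1T1, 10.4 TPM (237 counts) in M1T2 and 11.3 TPM (286 counts) in M1T3. No count of *T* was found in any tumor of mouse 2, where 3 counts would have been 0.0802 to 0.0879 TPM. The 3 tumors of mouse 1 were thus at least 7405-fold, 118-fold and 128-fold higher than the limit for mouse 2, and the groups did not overlap. In M1T1, *T* ranked 166 of 21469 protein coding genes by TPM, and in M1T2 and M1T3 it ranked 5975 and 5747. The reads fell on coding transcripts, with 12952 on the main one of 2046 bases and 1172 and 869 on shorter ones of 761 and 681 bases. Over 6 tumors *T* averaged 112 ± 264 TPM (SD), and over the 5 tumors other than M1T1 4.33 ± 5.94 TPM (SD).

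*Tbx1* and *Tbx4* followed the same order of tumors as *T*. *Tbx1*, a factor of the pharyngeal arches and heart, on chromosome 16 from 18580979 to 18590671, was at 128 TPM in M1T1 and at 2.02 and 2.78 TPM in M1T2 and M1T3. In mouse 2 it was at 0, 0.222 and 0 TPM. About 66.7% of its TPM in M1T1 came from coding transcripts, and the rest from transcripts annotated for decay or with a retained intron. *Tbx4*, the factor of the hindlimb and lung mesenchyme, was at 41.0 TPM in M1T1, at 1.04 and 1.08 TPM in M1T2 and M1T3, and had no count in mouse 2. It lies on chromosome 11 from 85886367 to 85916097, next to *Tbx2*.

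*Tbx2* and *Tbx3*, closely related repressors, were present in every tumor. *Tbx2*, on chromosome 11 from 85832615 to 85841948, was at 28.5, 1.38 and 1.34 TPM in M1T1, M1T2 and M1T3 and at 0.615, 0.532 and 0.438 TPM in those of mouse 2. *Tbx3*, on chromosome 5 from 119670534 to 119684724, was at 33.8, 28.2 and 26.3 TPM in mouse 1 and at 13.7, 13.4 and 8.37 TPM in mouse 2. It was the only T-box gene at 1 TPM or more in all 6 tumors, and its level in M1T1 was 1.20 times that of the next highest tumor. The mean of *Tbx3* was 29.4 ± 3.92 TPM (SD, n = 3) in mouse 1 and 11.8 ± 2.98 TPM (SD, n = 3) in mouse 2, and without M1T1 its mean over 5 tumors was 18.0 ± 8.74 TPM (SD). By *Tbx3* the tumors of mouse 1 lay above all those of mouse 2. Its neighbor *Tbx5*, the forelimb and heart factor, was highest in M1T1 at 3.46 TPM and at 0 to 0.117 TPM in the others.

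Among the other T-box genes, *Tbx6*, which directs paraxial mesoderm, was highest in M1T1 at 1.21 TPM (32 counts) and ranged from 0.104 to 0.267 TPM in the other 5. *Eomes*, a factor of the early streak and of cytotoxic lymphocytes, had 0, 0.195 and 0.0324 TPM in M1T1, M1T2 and M1T3 and 0.0272, 0.102 and 0 TPM in those of mouse 2. *Tbx21*, the T-bet gene of T and NK cells, reached 0.320 TPM at most, also in M1T2. The 10 T and NK cell markers summed to 1.24 TPM in M1T1 and to 3.97 to 14.7 TPM elsewhere. *Tbx10*, *Tbx15*, *Tbx18* and *Tbx20* stayed under 1 TPM in every tumor, and *Tbx19* and *Tbx22* had no count.

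The *Hox* genes differed by cluster. *Hoxd* genes were expressed in M1T1, and the A, B and C clusters were near 0 in all tumors. The 9 *Hoxd* genes, which lie within 96.9 kb on chromosome 2 from 74668225 to 74765142, summed to 291 TPM in M1T1, to 5.62 and 5.23 TPM in M1T2 and M1T3, and to 0.0129, 0.0145 and 0 TPM in mouse 2. All 9 were at 1 TPM or more in M1T1, 2 in M1T2, 3 in M1T3 and 0 in each tumor of mouse 2. For the A cluster, the sum of 11 genes was 1.53, 0.619 and 1.01 TPM in M1T1, M1T2 and M1T3 and 0.443, 0.453 and 0.337 TPM in mouse 2. *Hoxa13*, used in the distal limb and hindgut, supplied most of the first of these values with 1.17 TPM (55 counts), and had at most 0.0148 TPM in the other 5 tumors. The 10 genes of the B cluster were together lowest in M1T1, with 0.254 TPM in M1T1 and 0.594 to 1.25 TPM in the other 5 tumors. The 9 genes of the C cluster summed to 0.709 TPM in M1T1 and to 0.0789 TPM or less in the others.

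Within the D cluster, the highest levels lay in its middle. *Hoxd8*, a trunk gene on chromosome 2 from 74704615 to 74707933, was at 90.6 TPM in M1T1, at 1.51 and 1.62 TPM in M1T2 and M1T3, and at 0.0129, 0.0145 and 0 TPM (1, 1 and 0 counts) in mouse 2. *Hoxd10*, used in the limb and lower spinal cord, was at 54.6, 0.988 and 1.02 TPM in M1T1, M1T2 and M1T3. *Hoxd9*, which with *Hoxd10* acts in the limb and lumbar spine, was at 45.9, 1.64 and 1.07 TPM. *Hoxd11*, needed for the forearm and the kidney, was at 43.9, 0.765 and 0.765 TPM, and 56.5% of the value in M1T1 came from its coding transcript. *Hoxd4*, used in the hindbrain and neck vertebrae, was at 37.6, 0.199 and 0.418 TPM. Mouse 2 had no count of *Hoxd4*, *Hoxd9*, *Hoxd10* or *Hoxd11*. Toward the ends of the cluster the levels in M1T1 were lower, at 6.11 TPM for *Hoxd3* and 5.76 TPM for *Hoxd1* on one side and 2.92 TPM for *Hoxd12* and 3.15 TPM for *Hoxd13*, the gene of the digits and genital bud, on the other. Each of these 4 was at 0.224 TPM or less in the other 5 tumors. *Hoxd3* overlaps *Hoxd4* and *Hoxd10* overlaps *Hoxd11*, and no source used here gives the strand setting of the count, so reads could be split between the partners or come from antisense genes of the cluster.

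**Figure D2:**
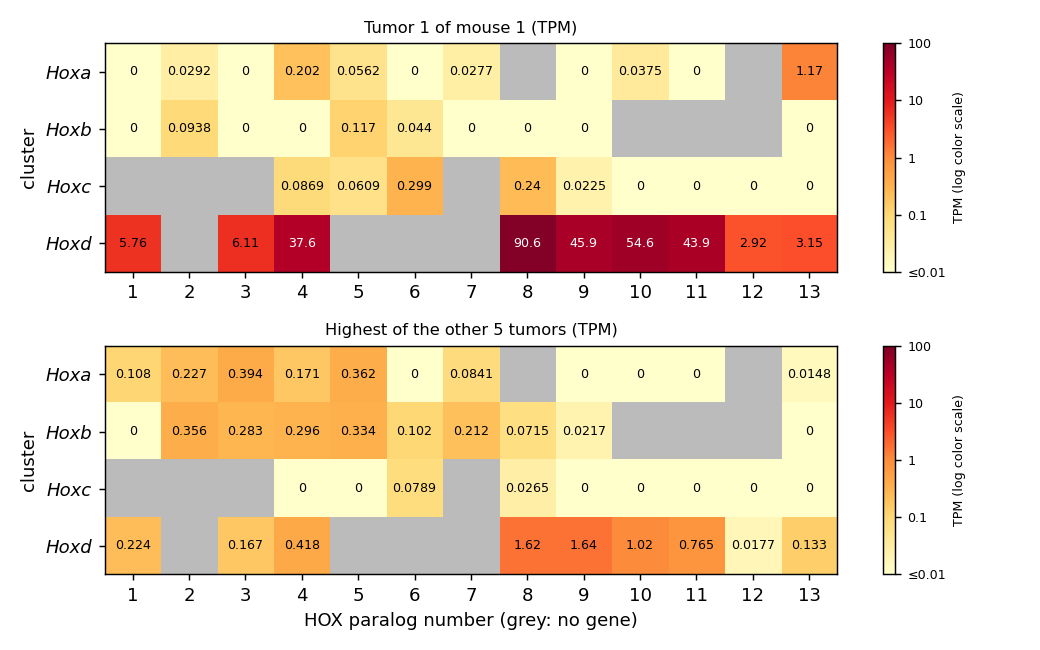
TPM of the 39 *Hox* genes by cluster (rows) and paralog number (columns), in M1T1 (top) and as the highest of the other 5 tumors (bottom), on a log color scale with grey where there is no gene. All 9 *Hoxd* genes are colored in the top panel, with *Hoxd8* the darkest at 90.6 TPM, while no gene of the lower panel exceeds 1.64 TPM.

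The 29 *Hox* genes under 1 TPM in every tumor comprised 10 of the A cluster and all of the B and C clusters. *Hoxa3*, at 0.394 TPM in M2T1, was the highest of them. In the B cluster *Hoxb2*, *Hoxb4* and *Hoxb5* reached 0.356, 0.296 and 0.334 TPM, each in M1T2 or M1T3, and *Hoxb3* and *Hoxb4* had no count in M1T1. *Hoxc6* and *Hoxc8* reached 0.299 and 0.240 TPM in M1T1. These levels rest on 19 counts or fewer per tumor, which is too few to order the tumors. 9 *Hox* genes had no count at all: *Hoxa6*, *Hoxa9*, *Hoxa11*, *Hoxb1*, *Hoxb13*, *Hoxc10*, *Hoxc11*, *Hoxc12* and *Hoxc13*.

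The homeobox genes *Msx1* and *Msx2* behaved like the D cluster. Both encode repressors that act downstream of BMP signals in limb buds and in the skull. *Msx1*, on chromosome 5 from 37820491 to 37824585, was at 83.7 TPM (3063 counts), 1.60 TPM (62 counts) and 1.59 TPM (80 counts) in M1T1, M1T2 and M1T3. *Msx2* was at 10.9, 0.140 and 0.127 TPM in the same tumors. Neither had a count in mouse 2, which puts *Msx1* at least 893-fold, 17.1-fold and 16.9-fold higher in M1T1, M1T2 and M1T3 than the limit of 3 counts in mouse 2. The *Cdx* genes, which set up *Hox* expression in the tailbud and, for *Cdx1* and *Cdx2*, form the intestine, were nearly absent. *Cdx1* had 0.270 TPM (8 counts) in M1T1 and no count elsewhere. *Cdx4* had 0.127, 0 and 0.0261 TPM in mouse 1 and 0.0833, 0 and 0 TPM in mouse 2. *Cdx2* had no count in any tumor, with 3 counts standing for 0.0716 to 0.0785 TPM in mouse 2.

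The *Sox* genes fell into 2 kinds by their level in M1T1. Their sum was 103 TPM in M1T1, 40.0 and 33.0 TPM in M1T2 and M1T3, and 15.8, 19.6 and 10.5 TPM in mouse 2, and 10 of 19 reached 1 TPM in a tumor. *Sox4*, an SOXC factor of progenitor cells, was the most abundant of them in M1T1, at 46.6, 7.08 and 7.13 TPM in M1T1, M1T2 and M1T3 and at 1.80, 5.25 and 0.549 TPM in mouse 2. The lowest and the highest tumor of mouse 2 differed more in *Sox4* than M1T2 and M1T3 did, and its mean was 11.4 ± 17.5 TPM (SD, n = 6) with and 4.36 ± 3.04 TPM (SD, n = 5) without M1T1. Over those 5 tumors *Sox6* had the higher mean, at 5.52 ± 3.47 TPM (SD, n = 5). The other SOXC factors, *Sox11* and *Sox12*, were likewise highest in that tumor. *Sox11* was at 11.2, 0.336 and 0.303 TPM in mouse 1 and at 0.0193, 0 and 0.0106 TPM in mouse 2. *Sox12* was at 7.38, 1.11 and 1.29 TPM in mouse 1 and at 0.0767, 0.229 and 0.120 TPM in mouse 2. *Sox8*, an SOXE factor of the neural crest and Sertoli cells, was at 8.35, 0.296 and 0.305 TPM in mouse 1 and had no count in mouse 2. *Sox21*, a neural and hair follicle repressor, reached 4.87 TPM in M1T1 and at most 0.184 TPM in the others.

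The second kind was not highest in M1T1, or stood less far above the other tumors there. *Sox9*, the marker of bile duct cells, was at 0.715, 3.27 and 2.97 TPM in M1T1, M1T2 and M1T3 and at 2.20, 2.36 and 0.106 TPM in those of mouse 2. It was under 1 TPM in 1 tumor of each mouse, and the mice overlapped. Among the bile duct markers beside it, the keratin gene *Krt19* was highest in M1T1, at 5.10 TPM against 0.241 to 1.83 TPM. The list of 10 bile duct markers summed to 69.4 TPM in that tumor and to 44.8 to 118 TPM in the other 5, with *Cftr* and *Cldn4* at 0 in M1T1. The part of bile duct cells in the *Sox9* values was not tested.

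The SOXD factors *Sox5*, *Sox6* and *Sox13*, which lack a domain for activation and act beside other factors, did not share 1 pattern. *Sox5* was at 0.117, 5.09 and 2.43 TPM (5, 255 and 244 counts) in mouse 1 and at 1.84, 1.45 and 1.12 TPM (225, 153 and 127 counts) in mouse 2. *Sox6* was at 4.11, 10.04 and 7.87 TPM (466, 407 and 457 counts) in mouse 1 and at 3.40, 4.94 and 1.37 TPM (290, 290 and 197 counts) in mouse 2. *Sox13* was at 2.20 to 4.46 TPM in all 6 tumors, with a mean of 3.39 ± 0.804 TPM (SD, n = 6). Their TPM and counts order the tumors differently for *Sox6*, whose transcripts run from 448 to 8668 bases, so that its TPM depends on how reads were shared between isoforms. By counts per tumor, *Sox5* stands out in M1T1 with 5 against 127 to 255 counts.

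The SOXF factors of endothelium were led by *Sox18*, which controls lymphatic development. It was at 16.7, 7.89 and 5.69 TPM in M1T1, M1T2 and M1T3 and at 2.25, 2.18 and 2.21 TPM in mouse 2, so that the mice did not overlap and mouse 2 varied by less than 0.1 TPM. *Sox17* and *Sox7* stayed under 1 TPM, with highest values of 0.952 and 0.659 TPM. The 10 endothelial markers summed to 17.3 TPM in M1T1, the lowest of the 6 tumors, to 71.4 and 79.4 TPM in M1T2 and M1T3, and to 33.3 to 43.6 TPM in mouse 2. *Sox18* was thus highest in the tumor with the lowest sum of these markers, and in the other 5 tumors both *Sox18* and the sum were higher in mouse 1. The low sum in M1T1 did not hold for each marker, since 5 of the 10 were lowest there. *Stab2* was at 0.180 TPM in M1T1 against 3.51 to 10.2 TPM in the others, and *Cdh5* at 3.69 against 3.08 to 8.75 TPM. *Sox2*, *Sox3*, *Sox10*, *Sox14*, *Sox15* and *Sox30* had no count in any tumor, and *Sox1* had 1 count.

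In M1T2 and M1T3, members that mouse 2 lacked stood at a low share of their level in M1T1. Besides members, 288 genes had no count in mouse 2 and at least 100 counts in M1T1. Their level in M1T2 was 1.76% (median, interquartile range 1.09% to 2.66%) of that in M1T1, and their level in M1T3 was 1.82% (1.15% to 2.75%). For 14 members of this kind the medians were 1.86% in M1T2 and 1.86% in M1T3, with ranges of 0% to 4.24% and 0.607% to 3.77%. *T* was at 1.59% and 1.73%, *Msx1* at 1.92% and 1.90%, *Hoxd10* at 1.81% and 1.87%, *Hoxd11* at 1.74% and 1.74%, *Tbx4* at 2.55% and 2.63%, and *Hoxd9* at 3.57% and 2.34%. *Hoxd4* was below the median share, at 0.529% and 1.11%. On the scale of counts divided by depth, the exact binomial interval (95%) of the share held the other genes' median of 1.80% for 10 of 14 members in M1T2 and for 9 of 14 in M1T3. These intervals cover counting error alone. The same count was not made for the 288 other genes, so nothing is read from these numbers. The interval of *T* lay below the median in both tumors, at 1.36% to 1.77% and 1.32% to 1.67%. The wide intervals of *Hoxd12* (0 and 1 counts), 0% to 2.85% and 0.0152% to 3.42%, held it. Not all genes followed the share, since 27 of the 288 genes were at 0 in M1T2, 20 in M1T3 and 13 in both, 3 of which were above 100 TPM in M1T1. What links the 3 tumors of mouse 1 in these genes was not tested.

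**Figure D3:**
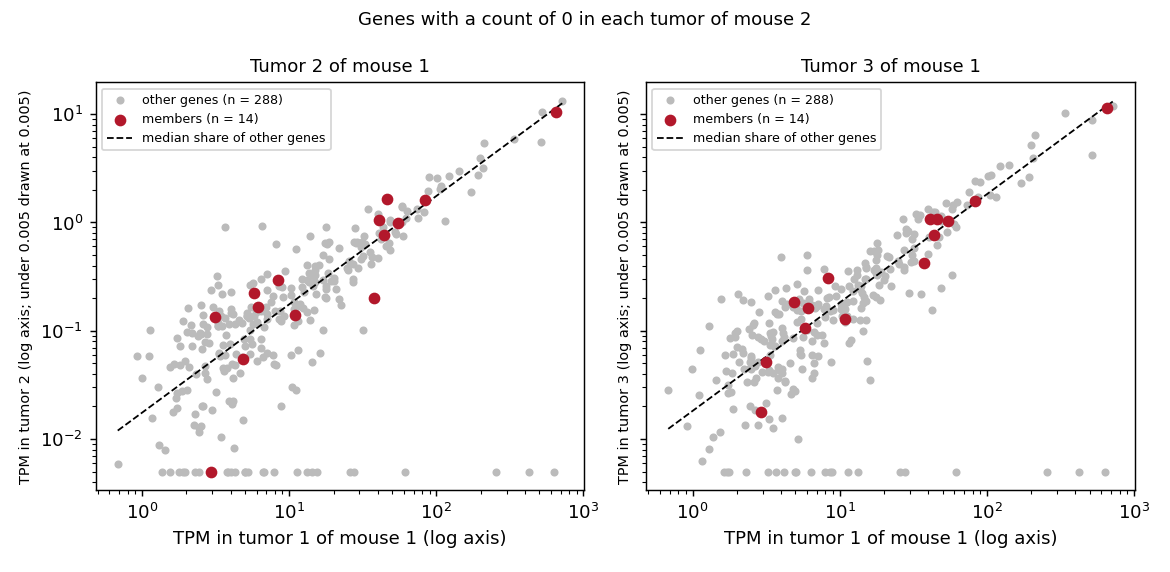
TPM in M1T2 (left) and M1T3 (right) against TPM in M1T1, on log axes, for genes without a count in mouse 2, with 14 members in red, 288 other genes in grey and values under 0.005 drawn at 0.005. The dashed line is the median share of the other genes (1.76% and 1.82%), and most members lie near it over the range from 2.92 to 651 TPM in M1T1.

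This median share of M1T1 was taken off the levels of M1T2 and M1T3 for chosen members. For *T* the remainder was -1.05 and -0.58 TPM. A median leaves genes on both sides of 0, so this says only that the share of *T* lay below the median. The shares of *Hoxd9*, *Tbx4* and *Msx1* lay above it, and these 3 members were not among those chosen. For *Tbx1* the remainder was -0.229 and 0.440 TPM, against 0 to 0.222 TPM in mouse 2. *Tbx3* kept 27.6 and 25.7 TPM against 8.37 to 13.7 TPM in mouse 2. *Sox18* kept 7.59 and 5.38 TPM against 2.18 to 2.25 TPM, *Sox12* kept 0.982 and 1.16 TPM against 0.0767 to 0.229 TPM, and *Sox4* kept 6.26 and 6.28 TPM against 0.549 to 5.25 TPM. For *Tbx2*, 0.876 and 0.823 TPM remained, against 0.438 to 0.615 TPM. The remainders of *Tbx2*, *Tbx3*, *Sox4*, *Sox12* and *Sox18* thus still lay above the highest tumor of mouse 2. So did those of *Sox6* (9.97 and 7.80 TPM against 4.94 TPM), *Sox9* (3.26 and 2.95 TPM against 2.36 TPM) and *Sox11* (0.139 and 0.0982 TPM against 0.0193 TPM). Those of *Sox13* did not, at 3.90 and 3.27 TPM against 4.46 TPM. The TPM of *Sox6* depends on how reads were shared between isoforms. By counts with the share taken off, its log2 fold change (edgeR) was -0.24 with an SE of 0.165 and an adjusted p of 0.478.

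Mouse 2 and mouse 1 were compared, since the animal is the only grouping the labels give. Such a test sets 1 animal against another, its error comes from tumors that share an animal, and its p-values hold for these tumors alone. Every tumor of mouse 1 was above every tumor of mouse 2 for 22 of the 29 members at 1 TPM or more in a tumor (75.9%), against 42.0% of the protein coding genes at that level. Of the 29, 22 reached 1 TPM only in tumors of mouse 1, 13 of them only in M1T1, so the choice of members leans to mouse 1 and nothing is read from this share. Of those that reached it in a tumor other than M1T1, 12 of 16 met the condition, against 40.2% of protein coding genes. Only 7 of these 16 reached 1 TPM in a tumor of mouse 2, so this smaller set leans to mouse 1 as well, and nothing is read from its share either. The 7 exceptions among the 29 were *Hoxa13*, *Hoxd12*, *Sox5*, *Sox6*, *Sox9*, *Sox13* and *Tbx6*. With all 6 tumors, 0 of 13268 genes (0.0%) passed edgeR's quasi-likelihood test, with 1449 at an unadjusted p under 0.05, and 0 of 23 members tested, with 12 at an unadjusted p under 0.05. limma-voom also called 0 genes, with 708 at an unadjusted p under 0.05, and DESeq2 called 133 higher and 69 lower in mouse 2 (1.52% in all, 0.52% lower), 2 of which were members. These were *Sox12* and *Sox18*, both lower in mouse 2. DESeq2 gave no adjusted p for 10 of the 23 members, *T*, *Hoxd8* to *Hoxd11*, *Msx1*, *Sox11*, *Tbx1*, *Tbx2* and *Tbx4*, so that it tested 13. By edgeR the log2 fold change of *Sox12* was -3.42 with an SE of 0.762 and an adjusted p of 0.412, and that of *Sox18* was -1.18 with an SE of 0.345 and the same adjusted p. For *Tbx3* it was -0.54 with an SE of 0.264 and an adjusted p of 0.529, and for *Sox4* -2.02 with an SE of 0.897 and an adjusted p of 0.495. The spread that M1T1 adds to mouse 1 enters each of these errors.

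Without M1T1, edgeR called 56 genes higher and 112 lower in mouse 2 among 13374 (1.26% in all, 0.837% lower). 5 of 25 members tested were among the lower ones. Their adjusted p (edgeR) was 0.0219 for *T*, 0.0219 for *Hoxd8*, 0.0465 for *Msx1*, 0.0489 for *Hoxd9* and 0.0494 for *Tbx4*. Relative to the limit of 3 counts in mouse 2, M1T2 and M1T3 were at least 19.2-fold and 19.9-fold higher in *Tbx4* and at least 19.6-fold and 12.8-fold higher in *Hoxd9*. No tumor of mouse 2 had more than 1 count of any of these 5 members. They thus entered the test through M1T2 and M1T3 alone, which fixed their direction. Their number is for that reason not read against the 0.837% of all genes. Over the alternatives that gave a value, the adjusted p of *T* ran from 6.5e-13 by DESeq2 without M1T1 to 0.902 by edgeR without M2T3, and the other 4 members had their lowest and highest values in the same fits, at 1.01e-06 and 0.902 for *Hoxd8*, for example. M1T2 and M1T3, the closest pair of tumors, count as 2 samples in this fit, and with both averaged into 1 sample edgeR called 0 of 13741 genes, with 927 at an unadjusted p under 0.05, and all 5 calls were lost, at adjusted p of 0.361 for *T* and *Hoxd8*, 0.563 for *Msx1* and *Hoxd9* and 0.595 for *Tbx4*. After the median share of M1T1 was taken off the counts of M1T2 and M1T3, edgeR called 1 gene higher and 0 lower in mouse 2 of 13107 (0.00763%), and 0 of 19 members, with 2378 genes and 6 members at an unadjusted p under 0.05. *T*, *Hoxd8* and *Msx1* were then too low to be tested. *Hoxd9* went from a log2 fold change of -8.87 to -7.73 (adjusted p of 0.121 by edgeR) and *Tbx4* from -8.56 to -6.85 (adjusted p of 0.129), fitted values that depend on the prior count since mouse 2 had no count of either. *Sox12*, *Sox18* and *Tbx3*, which had a level in both mice, did not pass edgeR's test in either of these fits. Without M1T1, DESeq2 called all 3 lower in mouse 2, with adjusted p of 0.000129, 0.0189 and 0.0179, and limma-voom called *Sox12* of the 3. For *Sox12* the log2 fold change was -2.52 with an SE of 0.443 and an adjusted p (edgeR) of 0.0584 before, and -2.43 with an SE of 0.454 and an adjusted p of 0.0987 after the share was taken off. For *Sox18* the values were -0.98 with an SE of 0.244 and an adjusted p of 0.106, and -0.99 with an SE of 0.247 and an adjusted p of 0.142. For *Tbx3* they were -0.66 with an SE of 0.175 and an adjusted p of 0.120, and -0.70 with an SE of 0.176 and an adjusted p of 0.144.

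Genes that work with the members were taken from lists. Of 21 genes of the primitive streak and tailbud, *T* and *Tbx6* included, 10 were at 1 TPM or more in M1T1, 3 in each of M1T2 and M1T3, and 2 in each tumor of mouse 2. *Sp5*, a direct target of Wnt signaling in the streak, was at 106, 15.4 and 15.6 TPM in mouse 1 and at 6.68, 6.31 and 4.13 TPM in mouse 2. *Evx1*, a homeobox gene of the posterior streak, was at 28.3, 0.647 and 0.805 TPM in mouse 1 and had no value in mouse 2. *Nkx1-2*, a gene of the caudal epiblast, was at 28.0, 0.750 and 0.598 TPM in mouse 1 and at 0.112, 0.0784 and 0 TPM in mouse 2. 6 genes of this list were at 0 in M1T1, namely *Fgf4*, *Lhx1*, *Mesp1*, *Nodal*, *Sp8* and *Wnt3a*.

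The list of 6 notochord genes had 5 at 1 TPM or more in each tumor of mouse 1, *T* among them. In mouse 2 the number was 2, 1 and 2. Among all protein coding genes the share at that level was 58.3% in M1T1 and 47.1% to 53.2% in the other 5 tumors. *Shh*, the signal made by notochord and floor plate, was at 89.7, 1.99 and 2.31 TPM in mouse 1 and at 0, 0.111 and 0.0310 TPM in mouse 2. *Nog*, an antagonist of BMP, was at 75.4, 1.11 and 1.90 TPM in mouse 1 and at 0 in mouse 2. *Foxa2*, which the liver uses too, was at 60.4 TPM in M1T1 and at 9.18 to 15.1 TPM in the other 5. *Noto*, which defines the node and notochord, was at 0 in all tumors.

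Other homeobox genes of the trunk and limb showed the same order of tumors in part. *Pitx1*, a hindlimb gene that acts with *Tbx4*, was at 211 TPM in M1T1, at 5.45 and 6.42 TPM in M1T2 and M1T3, and at 0 in mouse 2. *Alx4*, a limb and skull gene, was at 40.1, 1.29 and 1.10 TPM in mouse 1 and at 0.0346, 0 and 0 TPM in mouse 2, and *Dlx5*, a jaw and bone gene, at 10.8, 0.185 and 0.158 TPM in mouse 1 and at 0 in mouse 2. *Prrx1*, a gene of limb mesenchyme, was not highest in M1T1, at 0.776 TPM in M1T1 and 6.09 and 5.01 TPM in M1T2 and M1T3, and at 1.17, 3.45 and 0.0907 TPM in mouse 2. Of the genes of this list, *Evx2*, the neighbor of the D cluster, *Isl1* and *Meox2* were among those at 0 in M1T1.

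Of 9 PBX, MEIS and PREP genes, the DNA partners of HOX proteins, 5 to 7 were at 1 TPM or more in each tumor. Of 12 regulators of HOX chromatin, 10 to 12 were. Only 4 of the 9 partner genes were highest in M1T1, *Pbx2*, *Pknox1* and *Meis2* among them. *Pbx2* was at 15.5 TPM in M1T1 and 4.84 to 11.8 TPM in the others. *Pknox1* was at 16.7 against 3.04 to 4.88 TPM and *Meis2* at 13.6 against 0.365 to 1.98 TPM. *Meis2* was the only 1 of the 9 at least 4-fold higher in M1T1 than in each other tumor. All 12 chromatin regulators had a mean of at least 1 TPM, 11 were highest in M1T1, and 5 were at least 4-fold higher there than in each other tumor. *Bmi1*, of the Polycomb repressive complex that marks H2A, was at 86.8 TPM against 10.2 to 11.9 TPM, and *Suz12* and *Eed*, of the complex that methylates H3, were at 36.5 against 4.39 to 10.4 TPM and at 31.2 against 8.39 to 14.3 TPM. Among TCF and LEF partners of β-catenin, *Lef1* was at 103 TPM against 0.148 to 3.75 TPM, *Tcf7* at 91.1 against 4.53 to 11.7 TPM, and *Ctnnb1* at 821 against 91.0 to 180.5 TPM. Outside the rule the T-box family holds *Mga*, at 22.3 against 1.83 to 5.07 TPM, and *Tbr1*, at 0.0132 TPM in M1T1 and 0 in the others.

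**Figure D4:**
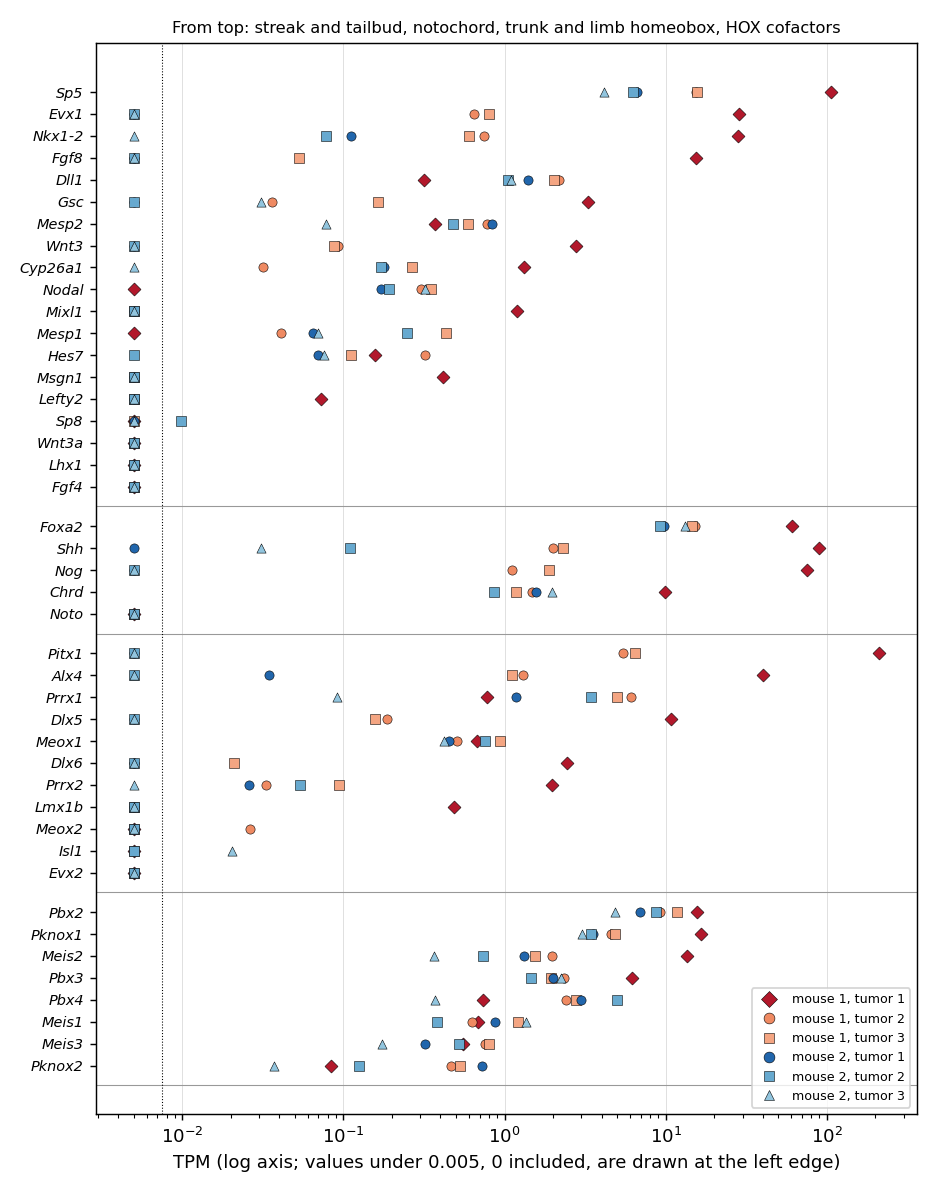
TPM of genes from 4 lists of genes that work with the members, on a log axis, with 1 point per tumor and values under 0.005, 0 included, drawn at the left edge. M1T1 is the highest point for *Sp5* (106 TPM), *Shh* (89.7 TPM) and *Pitx1* (211 TPM), while *Noto*, *Wnt3a*, *Lhx1*, *Fgf4* and *Evx2* are at the left edge in all tumors.

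Markers of cells that could bring these mRNAs into a tumor were read beside the members. The 10 stellate cell and fibroblast markers summed to 97.4 TPM in M1T1, to 106 and 106 TPM in M1T2 and M1T3 and to 29.6, 83.4 and 29.0 TPM in mouse 2. *Acta2*, the actin of smooth muscle and active stellate cells, was at 50.05 TPM in M1T1 against 1.29 to 4.56 TPM, and *Dcn*, a matrix gene of fibroblasts, at 19.1 against 11.4 to 52.2 TPM. Of 6 cartilage markers 5 were highest in M1T1, and 2 reached 1 TPM, both in that tumor. The 6 summed to 10.1 TPM in M1T1 and to 0.241 TPM or less in each other tumor. *Acan* and *Col2a1*, the defining ones, were at 0 and 0.0328 TPM in M1T1. None of 5 mesothelial markers reached 1 TPM in any tumor. Of 7 markers of glia and nerve, 2 reached 1 TPM, and *Sox10* was at 0 in all 6 tumors. The part of these cells in the levels of the members was not tested.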

How the data were processed

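RNAseq tables of 6 tumors, 3 from each of 2 CMRtdT mice, were used, and no sample was left out. The methods describe poly A mRNA libraries, while the series text speaks of total RNA. The expected counts, as deposited by the authors, are estimated numbers of reads per Ensembl transcript, not normalized. The deposited TPM values take effective transcript length and depth into account. The layout is that of Salmon, which the reporting summary lists as version 1.5.1 without a role. Names listed in the submitters' notes on processing are BWA, Picard and GRCm38, and no source used here gives the index release or the strand setting.

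IDs without their version were looked up in GENCODE vM39, used for names alone (114813 matched and 1733 did not), and the 2 measures were summed per gene. Positions and promoters came from RefSeq on GRCm38. Expected counts were rounded for testing. The 2 mice were compared with edgeR 4.0.16, by a two-sided quasi-likelihood test after filterByExpr and TMM scaling. Genes were called at a Benjamini-Hochberg adjusted p under 0.05 over all genes tested, with DESeq2 1.42.0 and limma-voom (limma 3.58.1) as alternatives. The tests were tried on simulated data. Other alternatives were the scaling, the filter, coding transcripts alone, other thresholds, leaving out 1 tumor at a time and the tumor number as a block. Those without M1T1 by other tools or scalings, with its share taken off or with M1T2 and M1T3 averaged were chosen after seeing the data. A count of 0 allows up to 3 counts, a limit for counting error only. Tumor numbers did not pair the tumors of the mice. Dixon's ratio used log2(TPM + 1), and its critical value for 6 values is 0.625.

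The members and lists were chosen with earlier results of these data known. Named with values in each tumor are members at 5 TPM or more in a tumor, *T*, *Tbx3*, *Sox9*, *Sox4*, *Eomes*, the *Cdx* and *Msx* genes, members called between the mice, and the 2 to 4 genes of each list with the highest mean. Members from 1 to 5 TPM are given by their range. Single values of 3 listed genes are not reported here. Defining and endothelial markers, genes of a list at 0 and members under 1 TPM that are named beyond this were chosen after their values were seen. Tools were Python 3.11.15 with matplotlib 3.10.9, scipy 1.17.1, pandas 2.3.3 and numpy 2.4.6, and R 4.3.3.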

Additional observations from a re-analysis of the deposited data

Results flagged for a closer look

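On the scale of log2(TPM + 1), Dixon's ratio sets the gap between the highest or lowest tumor and the nearest other one against the whole range, and above its 95% critical value for 6 values it singles out a tumor. Of the 22 named members at 1 TPM or more in a tumor, 15 passed this value, each with M1T1 as the highest tumor. Of all 13600 protein coding genes at 1 TPM or more in a tumor, 32.0% passed it with M1T1 as the highest tumor and 41.6% with any tumor. Most members were named for reaching 5 TPM in a tumor, and the 15 reached that level in M1T1 alone. The choice of named members thus leans to M1T1, and nothing is read from their number beside these shares. Chance singles out a tumor in about 1 of 20 sets of values, and the members share the same 6 tumors, so these results are not independent of each other. In the D cluster the ratios were 0.894 for *Hoxd1*, 0.921 for *Hoxd3*, 0.904 for *Hoxd4*, 0.787 for *Hoxd8*, 0.748 for *Hoxd9*, 0.825 for *Hoxd10* and 0.851 for *Hoxd11*. Among T-box genes they were 0.727 for *Tbx1*, 0.834 for *Tbx2* and 0.804 for *Tbx4*. *Msx1* had 0.784 and *Msx2* 0.947. Among *Sox* genes the ratio was 0.884 for *Sox11*, 0.632 for *Sox12* and 0.881 for *Sox8*. *T*, with 0.613, stayed under the critical value although its level in M1T1 was 57.7 times that of the next tumor, and 3 of its 6 values are at 0. The summed levels passed it for the D cluster (0.667), the T-box family (0.667), the *Msx* genes (0.779), all *Hox* genes (0.704) and all members (0.645). The cause was not tested.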

How the results depend on the processing

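Levels, family sums and most counts kept their side, and the number of calls between the mice did not. Of 283 alternative values of fold changes, 239 kept direction and side, 34 passed the threshold where the 6-tumor test had not, and 10 changed sign. With 6 tumors edgeR called 0 genes, against 133 higher and 69 lower in mouse 2, with 2 members lower, by DESeq2. Leaving out each tumor in turn gave 0 to 56 genes higher, 0 to 112 lower and 0 to 5 members lower, and only the fit without M1T1 made calls. Without that tumor DESeq2 called 782 higher and 587 lower with 12 members, limma-voom 177 and 300 with 10 members, and edgeR with library size alone 20 and 131 with 5 members. With its share taken off edgeR called 1 gene higher, and with M1T2 and M1T3 averaged 0 genes. Library size alone moved the median log2 fold change of all genes from -0.04 to -0.55 with 6 tumors, and that of the members from -2.02 to -2.68. *Sox5* (0.52) turned to -0.0477 without M1T1, and without it to -0.0509 by DESeq2, -0.0354 by limma-voom, -0.30 with library size, -0.12 with the share taken off and -0.0363 with averaging, and leaving out 1 tumor gave -0.0477 to 1.14. *Sox6* (-0.10) ran from -0.21 to 0.0192 and *Sox9* (-0.05) from -0.53 to 0.49 when 1 tumor was left out. No call was made for these 3 genes.

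Members with a mean of 1 TPM or more numbered 23, and 9 to 24 with 1 tumor left out, with 9 without M1T1. At 2 TPM, 9 members remained in M1T2 and 9 in M1T3, and 3 in M2T3. At 10 estimated counts there were 29 and 31 in M1T2 and M1T3, and 14, 14 and 11 in M2T1, M2T2 and M2T3. The tumor number as a replicate block left 0 genes called, with 800 at an unadjusted p under 0.05. Tumors of the same number did not deviate together, with correlations of 0.0387, -0.00027 and 0.0140 for numbers 1, 2 and 3. The cause of these shifts was not tested. Members under about 10 counts per tumor cannot be ordered at this depth.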
